A study of Mus musculus with 12 samples.

Results

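The Olig transcription factors are the products of 3 genes, Olig1, Olig2 and Olig3, out of 19751 genes named on the arrays. Every probe of these genes was taken, which gave 3 probes of 39429, 1 for each gene: A_52_P603038 for Olig1, A_52_P223626 for Olig2 and A_55_P2089422 for Olig3. The genes were selected on measured values, with their log2 signals in all 12 arrays and 4 groups known, so their levels and differences are a description, and no test of them is given.

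The cells came from CD-1 mouse embryos. Nucleic acid was electroporated into the medial telencephalon at E11.5, and 24 hours later, at E12.5 (embryonic days), the cells that had taken it up were collected by fluorescence sorting. All 4 groups carried a vector for EGFPNLS, the green fluorescent protein that marked the sorted cells. The groups differed in what came with it: control siRNAs, Dmrt3/Dmrta2 siRNAs of set 1, Dmrt3/Dmrta2 siRNAs of set 2, or an expression vector for Dmrta2, each in 3 replicates described as independent. The labels do not say whether embryos were pooled, so the spread between replicates may be partly technical. Control siRNAs were the only control, and no group with an empty expression vector was analysed here.

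Olig proteins are basic helix-loop-helix (bHLH) factors, which bind DNA at E-boxes, usually as dimers, and act mostly as repressors. Olig1 and Olig2 are best known for the oligodendrocyte lineage, and Olig2 also marks progenitors of the ventral telencephalon and of spinal motor neurons. Olig3 is best known from progenitors of the dorsal spinal cord, the hindbrain and the thalamus. Dmrt3 and Dmrta2, the siRNA targets, encode DM-domain transcription factors of the dorsal and medial telencephalon.

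The 250 bases before the start are shown for Olig2 and Olig3, because the RefSeq promoters used held no entry for Olig1. The bases shown are from RefSeq on build GRCm38.p6, plus strand, 5′ to 3′, at chr16:91225300-91225549 for Olig2 and chr10:19356289-19356538 for Olig3. Capitals mark matches to ACANTGT, the core of the site known for DM-domain factors, and to the TATA box TATAAA.
Olig2: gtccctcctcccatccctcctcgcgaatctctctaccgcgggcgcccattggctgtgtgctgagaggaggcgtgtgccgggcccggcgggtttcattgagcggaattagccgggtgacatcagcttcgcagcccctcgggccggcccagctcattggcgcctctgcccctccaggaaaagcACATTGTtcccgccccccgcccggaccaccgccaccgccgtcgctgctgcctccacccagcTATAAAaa
Olig3: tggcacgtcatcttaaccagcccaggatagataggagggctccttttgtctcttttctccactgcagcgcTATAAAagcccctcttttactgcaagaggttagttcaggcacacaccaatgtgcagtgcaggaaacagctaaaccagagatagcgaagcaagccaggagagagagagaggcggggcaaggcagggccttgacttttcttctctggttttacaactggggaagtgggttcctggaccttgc
Both strands were searched for ACANTGT, for TATAAA and for CANNTG, the E-box. Olig2 held 1 ACANTGT match, ACATTGT at 69 to 63 bases before the start, 1 TATAAA match at 8 to 3 bases before it, and no E-box. Olig3 held no ACANTGT match, 1 TATAAA match at 180 to 175 bases before the start and 1 E-box at 30 to 25 bases, and none of these matches overlapped another. Among 32851 RefSeq promoters searched over the same 250 bases, 6.47% held ACANTGT, 12.4% TATAAA and 66.2% CANNTG. A match describes the letters and is not evidence of binding. The Olig2 stretch had 66.8% G and C and the Olig3 stretch 51.6%. Olig1, without an entry, is named only.

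Each array was a 1-colour Agilent mouse array. Values are the log2 of the scanner's background-subtracted signal minus the 75th percentile of the same array, so a value of 0 is that percentile and every Olig value lay well under it. The 75th percentile ran from 572 to 1142 signal units over the 12 arrays. The scanner called 67.1% to 72.2% of the spots of an array well above background, which is its mark for a measurable spot. Across genes, arrays of the same group correlated at 0.979 to 0.994. The probe of Dmrt3 stood at 49.4% of control in set 1, 57.6% in set 2 and 95.1% in overexpression. The probe of Dmrta2 stood at 65.3%, 80.6% and 70.8%. Dmrta2 was therefore below control in the group labelled Dmrta2 overexpression, and whether its probe can detect the plasmid's transcript is not known. Neither target passed the test in any comparison of the main fit. With the slide fitted as a block, Dmrt3 passed for both siRNA sets averaged and in set 1, and Dmrta2 in none. Within slide 2, Dmrta2 in set 2 was 0.07 above control on the log2 scale. The telencephalic markers Emx1, Emx2, Lhx2, Sox2 and Nes were well above background on all 12 arrays, and none of them passed the test in any comparison. The 12 arrays lay on 3 slides, the slide number equals the replicate number, and each group always had the same position on the slide, so position and group cannot be told apart. The number of arrays limits the precision.

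Olig3 differed most between groups. In the control arrays it read -8.01, -6.26 and -7.96 for replicates 1, 2 and 3, and only replicate 2 was well above background, with a raw signal of 9.02. In set 1 it read -2.45, -2.61 and -1.97, with raw signals of up to 187. In set 2 it read -5.95, -4.27 and -5.67. All 6 siRNA arrays were well above background and above every control array, an order that 3.24% of all genes showed, and every set 1 array was above every set 2 array. In overexpression Olig3 read -8.19, -6.01 and -8.62, again with replicate 2 alone above background, and these values overlapped the controls. Because these are sorted mixtures of cells, fewer cells with a transcript and less of it per cell cannot be told apart.

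The log2 difference of Olig3 from control was 5.06 ± 0.71 (SE, n = 3 against 3) in set 1 and 2.11 ± 0.71 in set 2. In overexpression the difference was -0.20 ± 0.71. Replicate 2 read highest in control, set 2 and overexpression but lowest in set 1. Olig3 was measured on 1 of 3 control arrays, so its control mean lies partly below what the arrays resolve. With each dim value raised to the lowest signal well above background on its array, the difference became 3.85, a 14.4-fold higher level, in set 1, and 0.90, a 1.87-fold higher level, in set 2. Set 1 was thus far above control either way, while most of the log2 difference in set 2 depended on control signals that were not well above background.

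The spread of Olig3 around its group means was 0.98 on the log2 scale, with group SDs from 0.33 in set 1 to 1.40 in overexpression. The median spread was 0.42 among the 500 genes of nearest mean level over the 12 arrays. Within slides 1, 2 and 3 the Olig3 difference was 5.55, 3.65 and 5.99 for set 1. For set 2 it was 2.05, 1.99 and 2.29. With dim values raised, set 1 gave 3.55, 3.65 and 4.35 within slides, and set 2 gave 0.05, 1.99 and 0.66. The size of the set 2 difference therefore varied from slide to slide once the dim control signals were bounded.

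**Figure D1:**
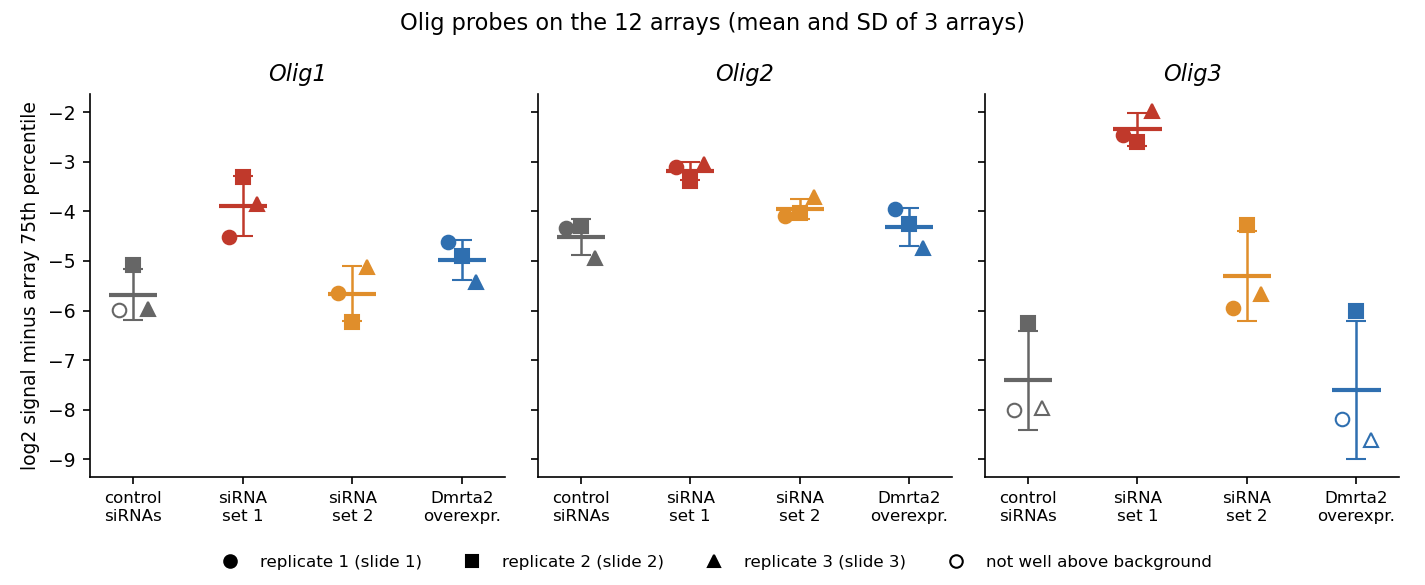
Log2 signal minus the array's 75th percentile (vertical axis) for Olig1, Olig2 and Olig3 in control siRNAs, siRNA set 1, siRNA set 2 and Dmrta2 overexpression; each point is 1 array, shapes give the replicate and slide, open points were not well above background, and bars show the mean and SD of 3 arrays. The 3 set 1 arrays lie above all other arrays for each gene, and Olig3 spans the widest range, from -8.62 to -1.97.

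Olig2 was well above background on all 12 arrays. In the controls it read -4.34, -4.28 and -4.94. In set 1 it read -3.11, -3.38 and -3.04, and in set 2 -4.09, -4.04 and -3.72. Each siRNA array was above each control array, and the set 1 and set 2 ranges did not overlap. In overexpression Olig2 read -3.96, -4.25 and -4.73, which overlapped the controls.

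The log2 difference of Olig2 from control was 1.34 ± 0.23 in set 1, a 2.54-fold higher level, and 0.57 ± 0.23 in set 2, a 1.49-fold higher level. In overexpression it was 0.21 ± 0.23. Within slides 1, 2 and 3 the set 1 difference was 1.23, 0.90 and 1.90, and the set 2 difference was 0.24, 0.25 and 1.22. Slide 3, whose control read lowest, gave the largest difference in both sets. The spread of Olig2 around its group means was 0.30, beside a median of 0.32 among the 500 genes of nearest level.

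Olig1 was well above background on 11 of 12 arrays. In the controls it read -5.99, -5.08 and -5.96, of which replicate 1 was not well above background. In set 1 it read -4.52, -3.31 and -3.84, so that all 3 arrays were above the controls. In set 2 Olig1 read -5.64, -6.23 and -5.11, a range that overlapped the controls. In overexpression it read -4.62, -4.91 and -5.42, with 2 of 3 arrays above every control array.

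The log2 difference of Olig1 from control was 1.78 ± 0.39 in set 1, a 3.45-fold higher level. In set 2 it was 0.02 ± 0.39, and in overexpression 0.69 ± 0.39. Within slides 1, 2 and 3 the set 1 difference was 1.46, 1.77 and 2.12, while set 2 gave 0.35, -1.14 and 0.85. Olig1 in set 2 thus had no steady direction. The spread of Olig1 around its group means was 0.53, beside a median of 0.38 among the 500 genes of nearest level.

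The set 1 arrays lay above the control arrays for 3 of 3 Olig genes, while 7.42% of all genes had every set 1 array above every control array. The set 2 arrays did so for 2 of 3, Olig2 and Olig3, beside 10.1% of all genes, and the overexpression arrays for 0 of 3, beside 5.66%. These comparisons share their control arrays and were used in choosing the genes, so nothing is read from the counts.

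Set 2 against set 1 does not use the control arrays, but its arrays too were used in choosing the genes. Its counts and ranks are therefore a description, and nothing is read from them. All 3 Olig genes were lower in every set 2 array than in every set 1 array, beside 6.28% of all genes. The log2 difference was -2.95 ± 0.71 for Olig3, the most negative of 15369 genes, -1.77 ± 0.39 for Olig1 and -0.77 ± 0.23 for Olig2. In the order of group means, set 1 was highest for each gene. Olig2 then ran from set 2 through overexpression to control, with overlapping ranges, and overexpression and control were 0.21 apart, less than their SD of 0.38. Olig3 ran from set 2 through control to overexpression, and the last pair was 0.20 apart with an SD of 1.21. For Olig1, overexpression came after set 1 and overlapped set 2, and set 2 and control were 0.02 apart with an SD of 0.54.

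**Figure D2:**
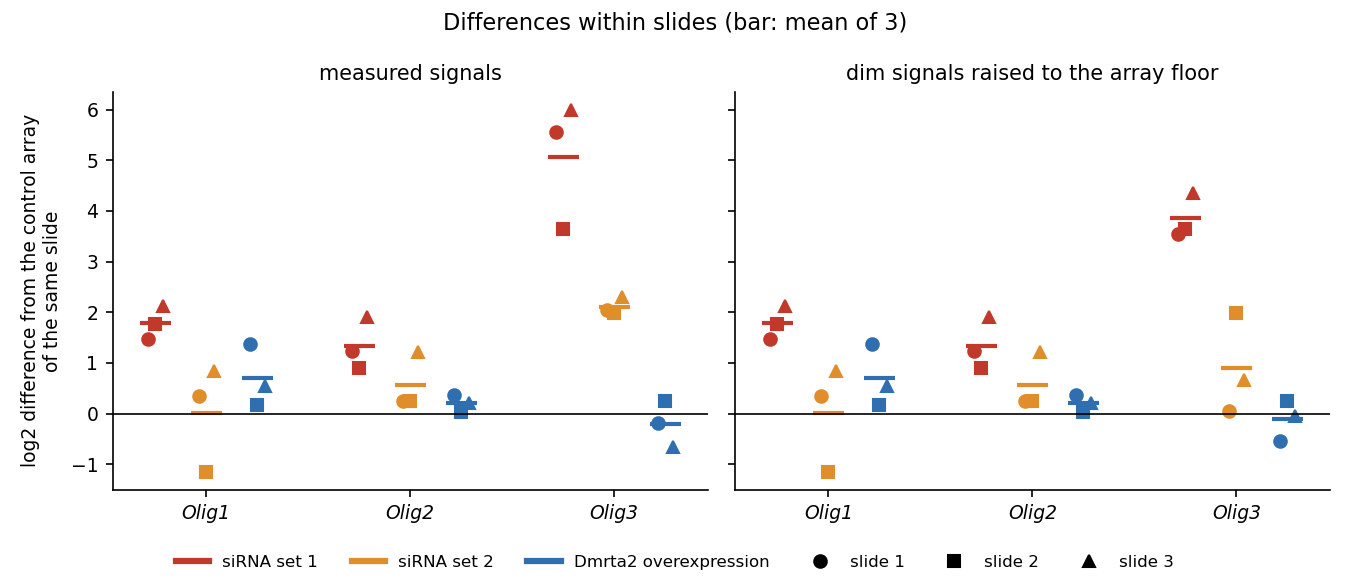
Log2 difference of each treated array from the control array of the same slide (vertical axis) for the 3 Olig genes, with signals as measured on the left and dim signals raised to the array's floor on the right; points are slides and bars are means of 3. Olig3 in set 1 stays between 3.55 and 4.35 on the right, while in set 2 it runs from 0.05 to 1.99.

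Markers of other cells moved with some groups. The summed level of 5 measured mesenchyme markers of 6 (Col1a1, Col1a2, Col3a1, Dcn and Pdgfrb), in multiples of the array's 75th percentile, was 1.02 to 1.47 in control, 1.94 to 7.11 in set 1, 1.44 to 1.69 in set 2 and 1.13 to 1.74 in overexpression. Every set 1 sum was above every control sum, as every set 1 value of the Olig genes was, and the highest was in set 1 replicate 1. Dcn makes up most of this sum on every array except set 1 replicate 1. Its mean log2 value was -0.15 in control, 0.99 in set 1, 0.38 in set 2 and -0.16 in overexpression. None of these markers passed the test, and their part in the Olig differences was not tested.

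Of 6 microglia markers, 5 rose in set 2, beside 1.02% of all genes that passed. They were Aif1, Cx3cr1, Tyrobp, C1qa, measured on 1 of 3 control arrays, and Trem2, by 1.63 to 2.17. For both siRNA sets averaged 4 rose, all of these but Trem2, beside 0.67% of all genes. In overexpression 3 rose (Aif1, Cx3cr1 and Tyrobp), beside 0.273%. In set 1 the 5 that rose in set 2 gave 0.63 to 1.41 and 0 passed, and none passed between the sets. Their part was not tested. The summed level of the 6 was 2.23 to 5.84 in control, 1.98 to 5.40 in set 1, 3.09 to 5.90 in set 2 and 3.06 to 5.998 in overexpression. Csf1r makes up most of this sum, with a mean log2 value of 1.92 in control and 1.71 to 1.92 in the other groups.

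The summed level of 5 measured erythroid markers was 1.94 to 3.85 in control, 1.70 to 18.6 in set 1, 3.43 to 7.88 in set 2 and 5.22 to 11 in overexpression. The 5 choroid plexus markers summed to 0.54 to 0.93 in control, 0.79 to 2.46 in set 1, 0.77 to 1.47 in set 2 and 1.18 to 1.24 in overexpression. The overexpression sums lay above all controls for both lists, and the highest set 1 sum of both was in replicate 1. Their part was not tested. Of the neuron, erythroid, endothelial, choroid plexus and surface ectoderm markers, 1 passed in any comparison, Krt8, a keratin. It was higher in overexpression, where 0.273% of all genes passed. Krt8 was not well above background on any control array, so no fold is given.

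Genes linked to the Olig factors by partnership, lineage, signalling or region were taken as 7 lists. They were bHLH partners and inhibitors, ventral telencephalon, oligodendrocyte lineage, hedgehog signalling, diencephalon, dorsal hindbrain and cord, and the motor neuron domain. Without the Olig genes the lists held 87 genes, of which 68 passed the filter on dim probes. By limma's test with Benjamini-Hochberg adjustment over all genes, 0 of the 68 passed with both siRNA sets averaged against control, beside 0.67% of all genes. The counts were 0 in set 1 (0.234% of all genes), 0 in set 2 (1.02%) and 0 in set 2 against set 1 (0.0781%). In overexpression 1 gene rose, beside 0.273%. At an unadjusted p under 0.05 there were 9 of 68 for the average, beside 12.1% of all genes, 9 for set 1 (10%) and 9 for set 2 (12.8%). There were 8 for overexpression (4.44%) and 7 between the sets (9.77%). The median log2 difference over the 68 genes was -0.01 for the average, beside -0.01 for all genes.

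None of the 8 measured genes of the bHLH partner list passed in any comparison. In set 1 the E proteins, which dimerise with bHLH factors, differed by 0.00 ± 0.17 for Tcf3, 0.05 ± 0.16 for Tcf4 and -0.18 ± 0.21 for Tcf12. Bhlhe22, a close relative of the Olig genes, differed by 0.55 ± 0.30. In set 2 all 8 values were below 0, with a median of -0.25 beside 0.00 for all genes, down to -0.72 ± 0.27 for Id2, an inhibitor of bHLH dimers named after its value was seen.

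Among 13 measured genes of the ventral telencephalon, Ebf1, a helix-loop-helix factor of striatal neurons, rose in overexpression by 1.34 ± 0.18 (limma, adjusted p = 0.012). Its control arrays read -4.13, -3.66 and -4.04 and its overexpression arrays -2.50, -2.79 and -2.52, with no overlap. Ebf1 no longer passed with normexp background correction, nor without control replicate 1, overexpression replicate 1 or overexpression replicate 3. In set 1 the progenitor factors Gsx2 (-0.03 ± 0.27), Gsx1 (0.09 ± 0.70) and Dlx2 (0.83 ± 0.40) did not pass. By limma at an unadjusted p under 0.05 there were 6 of the 13 for both siRNA sets averaged, beside 12.1% of all genes. There were 4 in set 1 (10%) and 4 in set 2 (12.8%). The list was singled out after these counts were seen, and nothing is read from them. Dlx1, named after its value was seen, had the list's largest difference in both sets. It did not pass and was not well above background on any control array, so no value is given.

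With the slide as a block, 4 of the 68 list genes passed for both siRNA sets averaged, beside 1.52% of all genes. They are named after their values were seen. Pax6 (1.06), a dorsal telencephalic progenitor factor, and Etv1 (0.67), an ETS factor, rose. Isl1, a LIM-homeodomain factor of striatal and motor neurons, was higher too, but was not well above background on any control array, so its difference has only a bound and is not given. Sox8 (-0.93), a SoxE factor of the oligodendrocyte lineage, fell. Their adjusted p with the block was 0.037 for Isl1, 0.038 for Pax6, 0.028 for Etv1 and 0.037 for Sox8, and without the block none passed. With the block, Isl1, Etv1 and Sox8 passed in set 1, beside 0.742% of all genes. In set 2 Etv1 and Mbp, the myelin basic protein gene, which fell by 0.73, passed, beside 2.37%, and in overexpression Ebf1, beside 0.332%. The block left the Olig differences as they were, and their SE became 0.41 for Olig1, 0.23 for Olig2 and 0.50 for Olig3.

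In the oligodendrocyte list, of 13 measured genes, Sox10 (0.14 ± 0.15), a master factor of the lineage, Nkx2-2 (-0.14 ± 0.18) and Cspg4 (0.35 ± 0.20), the NG2 proteoglycan of precursors, did not pass in set 1. Pdgfra, the growth factor receptor of the precursors, gave 1.09 ± 0.77 and was above background on 1 of 3 control arrays. Of 9 measured hedgehog genes, the pathway's target readouts Ptch1 (0.29 ± 0.20) and Gli1 (-0.81 ± 0.53) did not pass in set 1, nor did Gli2 (0.13 ± 0.28).

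Of 9 measured diencephalic genes, Gbx2 (-0.99 ± 0.67, measured on 1 of 3 arrays in either group) and Tcf7l2 (-0.04 ± 0.22), both factors of the thalamus, did not pass in set 1, nor did Lhx9 (0.02 ± 0.18) or Dbx1 (0.41 ± 0.52). In the dorsal hindbrain and cord list of 12, the proneural bHLH factors Neurog1 (0.18 ± 0.21) and Neurog2 (0.46 ± 0.22) did not pass in set 1. Nor did the bHLH factor Ptf1a, which was not well above background on any control array. In the motor neuron list of 10, Nkx6-1 (-0.15 ± 0.21) and Lhx3 (0.45 ± 0.19) did not pass in set 1, nor did Irx3, also below that mark on all control arrays. The motor neuron list had the highest median of the 7 lists in set 1, 0.42, beside -0.01 for all genes. It was singled out after the medians were seen. The list holds Isl1 and Irx3, which were not well above background on any control array, and nothing is read from this median.

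**Figure D3:**
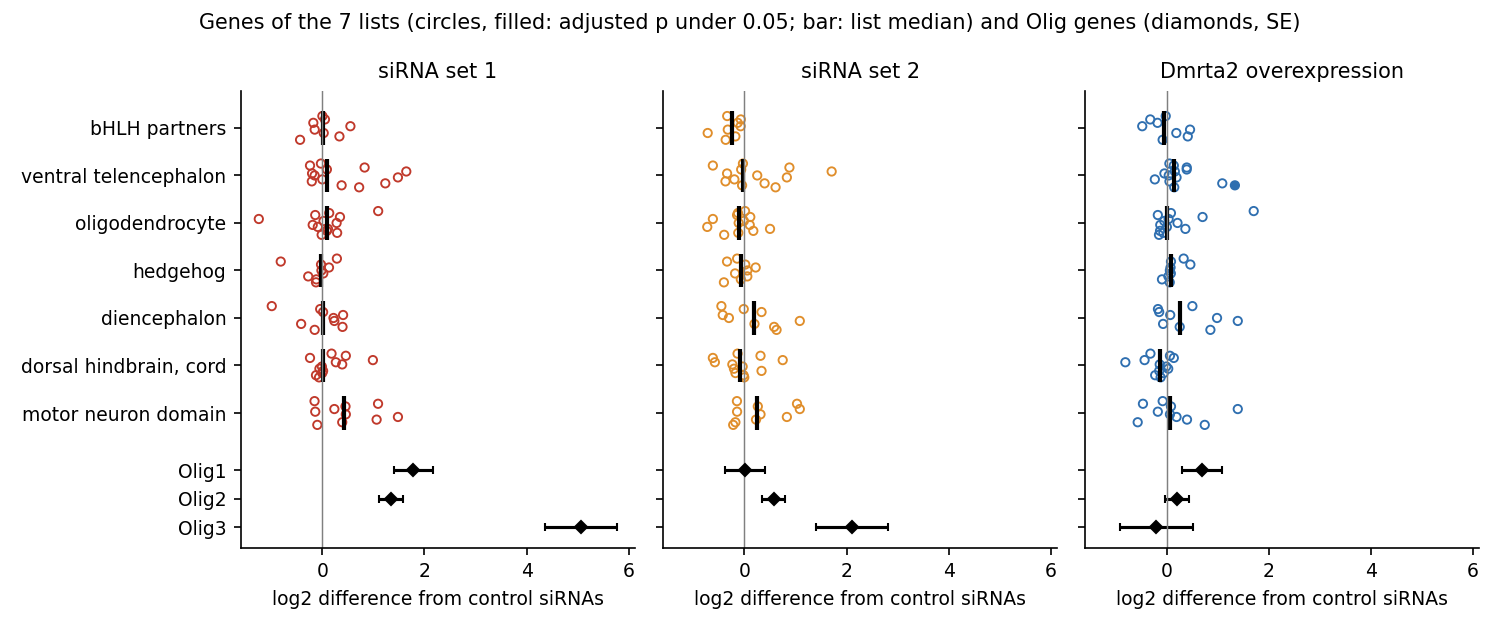
Log2 difference from control siRNAs (horizontal axis) for the measured genes of the 7 lists (circles, filled where the adjusted p was under 0.05, with a bar at the list median) and for Olig1, Olig2 and Olig3 (diamonds with SE), in set 1, set 2 and overexpression. The 1 filled circle is Ebf1 in overexpression, and Olig3 in set 1 lies at 5.06, beyond every list gene.

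The genes whose values ran most like each Olig gene were found by the smallest root mean square gap over the 12 arrays, each gene centred on its own mean, among 14837 genes well above background on at least 6 arrays. For Olig2 the nearest 4 were Dcn (gap 0.25), St8sia4 (0.26), Slc1a3 (0.27) and Ntrk3 (0.30), beside a root mean square of 0.57 for Olig2 itself. Dcn, the matrix proteoglycan decorin, is also the mesenchyme marker that makes up most of the sum above on most arrays. Its likeness to Olig2 and that sum are therefore not separate observations. Slc1a3 is a glial glutamate transporter. For Olig1 the nearest 5 were Ltbp2 (0.40), Pth1r (0.40), Map3k6 (0.43), Arhgef5 (0.44) and Myo10 (0.44), beside 0.84 for Olig1.

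For Olig3 the gaps were wider: Actc1 (1.37), Tacr3 (1.39), Tox (1.39), Emilin2 (1.45) and Wif1 (1.46), beside 2.27 for Olig3 itself. Actc1, a cardiac actin, was measured on 1 of 3 control arrays. Tacr3 is the neurokinin 3 receptor, and Wif1 a secreted Wnt inhibitor. These 5 differed from control by 2.13 to 3.12 in set 1, where Olig3 differed by 5.06. In set 2 they differed by 1.17 to 2.96, where Olig3 differed by 2.11, and Tox (2.96) and Tacr3 (2.13) were not below it. With dim values raised to the floor, Olig3 differed by 0.90 in set 2, while the values of the 5 genes are as measured. The gaps also used signals as measured, and Olig3 was well above background on 8 of 12 arrays. Between the sets Tox differed by -0.16 and Tacr3 by -0.65, where Olig3 differed by -2.95. The Olig genes were not among each other's 5: the gap was 0.58 between Olig1 and Olig2, 1.86 between Olig1 and Olig3, and 1.79 between Olig2 and Olig3. With Pearson correlation as the measure, 1, 1 and 0 of the 5 genes were the same for Olig1, Olig2 and Olig3.

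**Figure D4:**
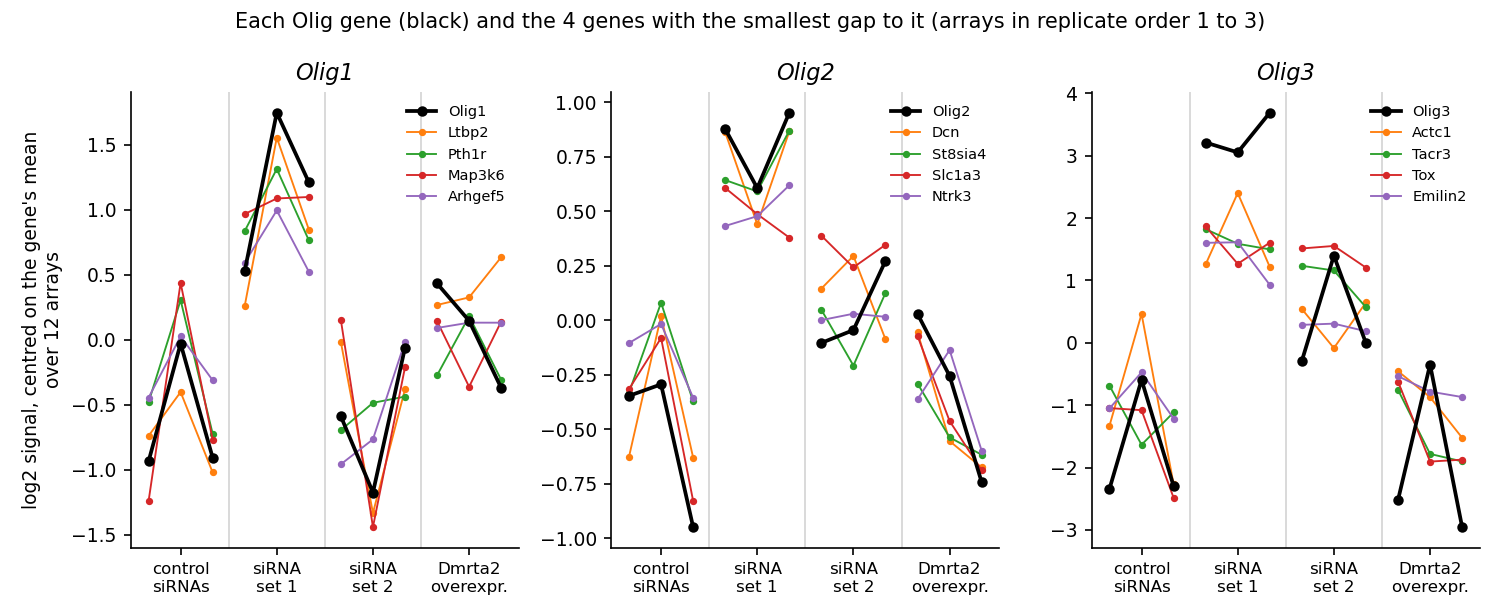
Log2 signal of each Olig gene (black) and the 4 genes most like it (colours), centred on each gene's mean over 12 arrays (vertical axis), with arrays by group and in replicate order along the horizontal axis. The set 1 arrays stand highest for each Olig gene. With signals as measured, the genes most like Olig3 differ less from control than it does in set 1, but Tox and Tacr3 do not in set 2. Olig3 was well above background on 8 of 12 arrays.

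Olig1 and Olig2 lie beside each other on mouse chromosome 16 in the RefSeq order, with 1 gene between them, and Olig3 lies on chromosome 10. The nearest measured genes were named after their values were seen. Ifnar2, beyond Olig1, differed by 0.00 ± 0.14 in set 1, and Paxbp1, beyond Olig2, by -0.17 ± 0.14. Around Olig3, Tnfaip3 differed by 0.10 ± 0.22 and Ifngr1 by 0.48 ± 0.17. None of these neighbours passed in set 1.

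**Figure D5:**
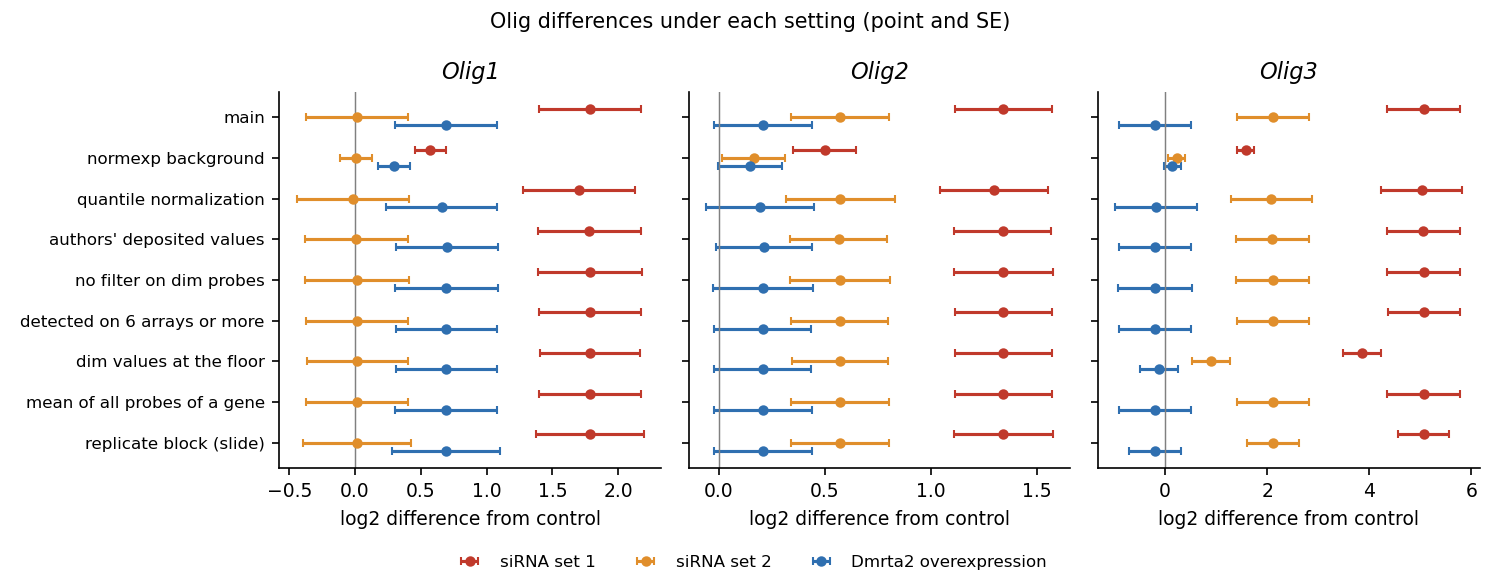
Log2 difference from control siRNAs (horizontal axis) with SE for the 3 Olig genes under each way of processing the arrays (vertical axis), in set 1 (red), set 2 (orange) and overexpression (blue). Set 1 lies above 0 under each setting drawn, and its smallest values, 0.57 for Olig1, 0.50 for Olig2 and 1.58 for Olig3, come from normexp background correction.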

How the data were processed

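Per the file headers, the authors deposited scanner output of Agilent Feature Extraction 10.5.1.1, and the intensity used was its background-subtracted processed signal. The authors also deposited a table of log2 values of unstated scale and centring. It matched the log2 processed signal minus each array's 75th percentile, centred on each probe's median over 12 arrays (r above 0.999 on each array, column medians -0.13 to 0.10). The direction is the same.

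Control spots and 136 to 218 outlier-marked spots of 43020 per array were left out. No spot was saturated. Each array's 75th percentile of log2 signal was subtracted, and repeated spots of a probe were averaged. Probes were named through RefSeq accessions (26055 of 39429 named; all 3 Olig genes matched). Probes well above background on at least 3 arrays were kept, the brightest for each gene, which left 15369 genes. limma 3.58.1 in R 4.3.3 was fitted over all 12 arrays with 8 residual degrees of freedom, tests two-sided, threshold an adjusted p under 0.05. Each SE of this main fit uses the gene's spread pooled over the 4 groups and drawn toward that of other genes. The fit was tested on simulated data for both siRNA sets averaged only. Those data had independent noise and no slide effect, so they do not cover the slide structure of these arrays.

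The Olig genes, the gene lists and the markers were chosen with earlier results of these data known. Named were the targets, the Olig genes, list genes past the threshold, up to 4 others per list in a set order, and the 5 genes most like each Olig gene. Where the text names a gene outside this rule, it says so or gives it as a marker, and some genes that the rule names are not reported here. The replicate number equals the slide. Deviations of same-numbered arrays correlated at 0.02 to 0.60, of other arrays at -0.52 to 0.21, and the slide block was fitted as an alternative because each slide held all 4 groups.

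Alternatives were normexp background (offset 50) on deposited intensities (spot median and local background), quantile normalization, the deposited log2 values, filters, a floor for dim values, the mean of a gene's probes, the slide block and each array left out. For normexp, the local background of up to 34 spots an array that exceeded 2 times the array's median was replaced by that median, a step added after seeing the data.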

Additional observations from a re-analysis of the deposited data

How the results depend on the processing

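The log2 difference of each Olig gene in set 1 kept its direction under all 8 alternatives and all 12 fits that left out an array. The normexp offset of 50 was above every Olig signal in control but below some in set 1. That setting also used the spot median and local background, and why the values changed was not tested. Normexp background made the differences given next smaller in size. For Olig1 it gave 0.29 for both sets averaged, 0.57 for set 1 and -0.56 for set 2 against set 1. For Olig2 it gave 0.33, 0.50 and -0.34, with 0.16 for set 2 against control. For Olig3 it gave 0.91, 1.58 and -1.35, with 0.23 for set 2. Raising dim values to the floor gave Olig3 2.38 for both sets averaged, 3.85 for set 1 and 0.90 for set 2.

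Counts of genes past the threshold moved more. Both sets averaged gave 103 genes, 39 with normexp, 37 with no filter and 233 with the replicate block. Set 1 gave 36, and 114 with the block. Set 2 gave 157, 60 with normexp, 26 with no filter and 365 with the block. Overexpression gave 42, and 26 both with normexp and with the filter at 6 arrays. Set 2 against set 1 gave 12, 21 with normexp, 0 with no filter and 33 with the block. Of list genes, the block called 4 for the average, 3 for set 1 and 2 for set 2. The mean of probes called 1 in set 1, Etv1, and normexp called 0 in overexpression, where Ebf1 was lost. The cause was not tested.

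Leaving out 1 array gave 17 to 87 genes for the average, 4 to 83 for set 1, 10 to 143 for set 2, 18 to 55 for overexpression and 0 to 12 between the sets, and 0 to 1 list genes in overexpression. The lowest counts came without control replicate 1 (17), set 1 replicate 2 (4), set 2 replicate 1 (10) and overexpression replicate 1 (18). Leaving out an array changed the Olig3 difference to 4.76 to 5.64 in set 1 and 1.60 to 2.69 in set 2. Each Olig gene had 1 probe, so no other probe could be tried. Signals near background limit Olig3 in control and overexpression. Olig1 was dim as well, with raw signals of 9.81 to 20.4 in control, 9.49 to 24.8 in set 2 and 13.3 to 25.8 in overexpression.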
